A study of Mus musculus with 6 samples.

Results

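The mitochondrial solute carriers and uncoupling proteins were taken as every gene whose current symbol starts with Slc25, together with Ucp2. The array measured 44 such genes with 93 probe sets that carry exactly 1 gene symbol, out of 18193 genes named in the same way. Each gene was followed by the probe set with the highest mean signal over all arrays, and Slc25a4 and Slc25a5 by all of theirs. Of the 44 genes, 39 passed the filter on dim signals, among 12323 genes that did. Ucp2, Slc25a21, Slc25a43 and the pseudogene Slc25a5-ps were not analysed here.

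Most carriers of the SLC25 family sit in the inner mitochondrial membrane and move nucleotides, phosphate, carboxylates, amino acids and cofactors between cytosol and matrix. The ADP/ATP carriers return ATP to the cytosol in exchange for ADP, and the phosphate carrier supplies the other substrate of ATP synthase. Uncoupling proteins belong to the same family, and UCP1 of brown fat is known for letting protons back into the matrix as heat is made.

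The striatum was taken from 3 mice lacking PGC-1alpha (KO, PGC-1a-/-) and from 3 wild-type mice (WT, PGC-1a+/+). PGC-1alpha, encoded by Ppargc1a, is a coactivator that binds transcription factors and is known for switching on mitochondrial genes. All 6 mice were females of 6 months, both genotypes descended from crosses of heterozygous founders, and each mouse had 1 Affymetrix array. The label of KO 3 names cytoplasmic RNA, whereas the other 5 name total RNA. Log signals correlated at 0.975 to 0.983 between any pair of arrays.

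The signal is a MAS5 intensity that the authors had already scaled to one trimmed mean per array, so a difference is measured against the bulk of the array's signal. Differences are KO minus WT of log2(signal + 16), an offset that understates the change of dim probe sets. A probe set was called at an adjusted p under 0.05 in limma over all 27022 probe sets tested. As a check of the labels, all 5 probe sets of Ppargc1a were called lower, with differences from -1.93 to -1.12. Of 7 striatal projection neuron markers measured, all passed the filter, with 6 higher and 1 lower in KO (median difference 0.07). Their summed signal ran from 25387 to 27766 in KO and from 23501 to 28066 in WT. The 5 oligodendrocyte markers measured were all lower (median difference -0.18), with sums of 22886 to 25039 in KO and 23552 to 28543 in WT, which overlap. Of these markers Mag alone had groups without overlap (difference -0.43, adjusted p = 0.11). The 3 fast-spiking interneuron markers were all lower (median -0.64), with overlapping sums of 898.9 to 1406 in KO and 1267 to 2271 in WT. Choroid plexus markers summed to 2716 to 3767 in KO and 1310 to 2313 in WT, without overlap. Nearly all of that sum was Ttr, which was called higher (2597 to 3660 in KO, 1264 to 2193 in WT, adjusted p = 0.035), while Kcnj13 overlapped (adjusted p = 0.84) and Folr1, Kl and Otx2 lay below the filter. The 3 thalamus markers were all higher (median 0.70), with overlapping sums of 750.1 to 1000.4 in KO and 217.3 to 1225 in WT, where WT 2 was low and WT 1 high. Sums of astrocyte, microglia, endothelium, cortical excitatory neuron and blood markers overlapped between genotypes, and none of those tested was called. Median differences were 0.03 for astrocytes, 0.11 for microglia, -0.15 for endothelium and -0.18 for cortical excitatory neurons. Cortical sums ran from 178.2 to 529.2 in KO and from 185.4 to 405.6 in WT. The part of these cell types in the carrier results was not tested, and in a tissue sample fewer cells of a type and less RNA per cell cannot be told apart.

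Across the family most differences between KO and WT striatum were small. By their leading probe sets 24 of the 39 carriers were lower in KO and 15 were higher, so 61.5% were lower, against 51.8% of all genes tested. The median difference was -0.07, against -0.01 over all genes, and single carriers ran from -0.38 (Slc25a40) to 0.29 (Slc25a13). None of the 39 leading probe sets was called in limma, where 0.446% of all genes were by that rule. At an unadjusted p under 0.05, 5 were lower and 1 was higher, together 15.4%, against a background of 9.73% of genes (5.61% lower, 4.12% higher). Groups did not overlap for 8 of the 39, 7 of them lower in KO, which is 20.5% against 15.1% of all genes (8.48% lower, 6.64% higher).

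Among all 76 carrier probe sets tested, 1 was called, a probe set of Slc25a5, where 0.47% of all probe sets were called (0.292% lower, 0.178% higher). Lower by any amount were 53 of the 76, against 51.1% of all probe sets. At an unadjusted p under 0.05, 15 of the 76 were lower and 1 was higher, against a background of 9.17%, made up of 5.06% lower and 4.11% higher. Groups did not overlap for 19 lower and 1 higher, against 7.88% lower and 6.52% higher among all probe sets. The 15 lower ones include 9 probe sets of the ADP/ATP carriers, so they come from few genes.

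**Figure D1:**
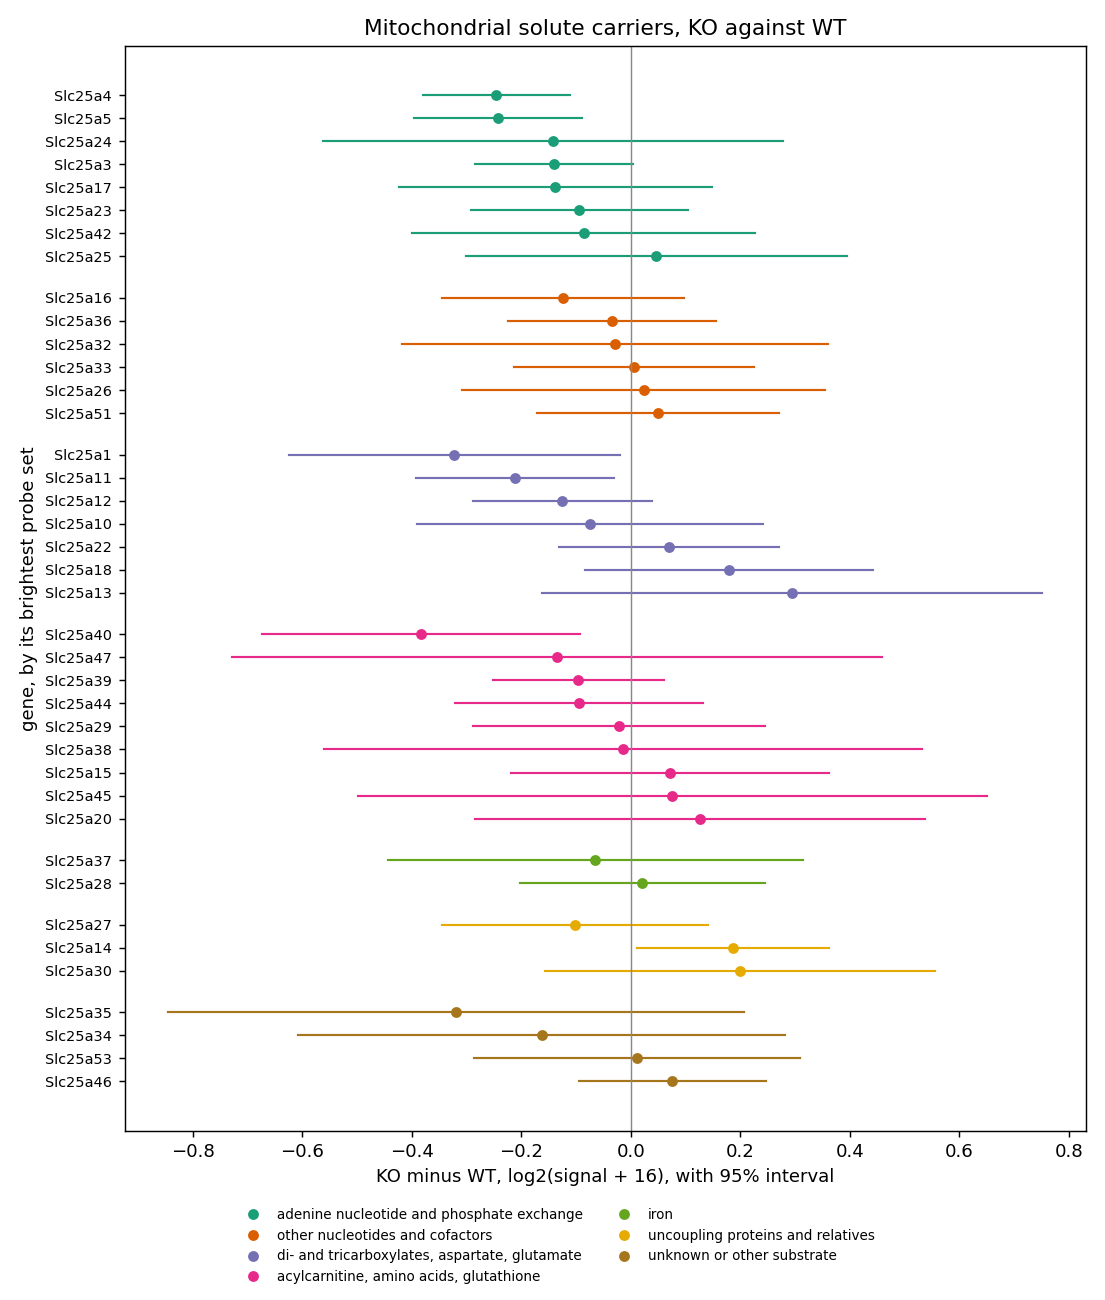
KO minus WT difference in log2(signal + 16) for the 39 carriers tested (rows, coloured by substrate group), with 95% intervals from limma, n = 3 arrays per group. The intervals of Slc25a4, Slc25a5, Slc25a1, Slc25a11 and Slc25a40 lie below 0 and that of Slc25a14 above it, and none of these leading probe sets passed adjustment over all probe sets.

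The ADP/ATP carriers had all 12 of their probe sets lower in KO, 1 of them called. Slc25a4 encodes ANT1, the isoform of heart, muscle and brain. Its leading probe set, 1434897_a_at, read 4187, 4209 and 4451 in KO mice, against 5117, 5123 and 4992 in WT mice. Every KO array lay below every WT array. The means were 4282 ± 147 in KO and 5077 ± 73.6 in WT (SD, n = 3), a difference of -15.7%. On the log2 scale it was -0.25 (95% interval -0.38 to -0.11, adjusted p = 0.15).

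A second Slc25a4 probe set, 1424562_a_at, read 3551, 3613 and 3640 in KO, against 4124, 4246 and 3866 in WT. The third, 1455069_x_at, read 3577, 3553 and 3634 in KO, against 4129, 4102 and 3869 in WT. Both again separated the genotypes without overlap, and their differences were -0.18 and -0.17 (adjusted p = 0.38 and 0.40). The dim probe set 1424563_at read 27.8, 35 and 29.3 in KO, against 46.6, 34.1 and 26.7 in WT, with overlapping groups and a difference of -0.13 (95% interval -0.60 to 0.33).

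Slc25a5 encodes ANT2, a close paralogue that is the more widely expressed isoform. Its probe set 1438545_at fell in KO striatum and was the only one of the family to be called. It read 292.9, 254.4 and 246.3 in KO mice, against 454.9, 429.8 and 482.5 in WT mice. The highest KO array lay well below the lowest WT array, and the means were 265 ± 24.9 in KO and 456 ± 26.4 in WT (SD, n = 3). On the log2 scale the difference was -0.75 (SE 0.10, 95% interval -0.97 to -0.54, adjusted p = 0.0045). The call held with each array left out in turn (adjusted p of 0.0063 to 0.025, and a difference of -0.71 without KO 3) and was lost without the intensity trend (adjusted p = 0.10), within a range of 0.0030 to 0.10 over all alternatives. With all probe sets of the gene averaged, Slc25a5 gave -0.32 and was not called (adjusted p = 0.094).

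The other 7 probe sets of Slc25a5 were lower in KO as well, by smaller amounts. Next in size was 1438546_x_at, with 641.1, 634.7 and 590.8 in KO, against 1093, 776.4 and 790.2 in WT. The groups were separate and WT 1 stood above the other WT mice. The difference was -0.48 (95% interval -0.74 to -0.23, adjusted p = 0.14).

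The leading probe set, 1436874_x_at, read 3208, 3177 and 3116 in KO, against 3834, 4002 and 3434 in WT. Probe set 1423772_x_at read 3012, 2898 and 2759 in KO, against 3643, 3462 and 3333 in WT. For both the KO arrays stayed below all WT arrays, with differences of -0.24 and -0.27 (adjusted p = 0.24 and 0.16). Probe set 1430542_a_at read 2653, 2702 and 2704 in KO, against 3326, 3268 and 2932 in WT. Probe set 1434801_x_at read 2339, 2339 and 2300 in KO, against 2986, 2864 and 2389 in WT. These too did not overlap, although WT 3 came close to the KO arrays in the last, and the differences were -0.24 and -0.23 (adjusted p = 0.24 and 0.38).

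Probe set 1438360_x_at read 419.6, 453.6 and 344.8 in KO, against 386.6, 375.9 and 664.1 in WT. Probe set 1438922_x_at read 270.7, 283.8 and 214.2 in KO, against 241.7, 262.1 and 384.1 in WT. In both the groups overlapped and only WT 3 was high, the difference was -0.18, and without WT 3 it was 0.08 for the first and 0.01 for the second. Thus 6 of the 8 Slc25a5 probe sets separated the genotypes, and 3 of the 4 of Slc25a4 did, all lower in KO. Of all probe sets tested 14.4% did, with 7.88% lower in KO. Probe sets of the same gene read the same mice and are not independent. The suffix _x_at, borne by 6 of the 8 Slc25a5 probe sets, marks those that hold probes able to match other sequences. Signal from a related gene or a pseudogene cannot be separated there. Whether the called probe set differs from the others of its gene was not tested. Of all 827 probe sets with a mean signal of at least 2000, 57.1% were lower in KO, with a median difference of -0.02. Groups did not overlap for 19.0% of them, with 12.8% lower in KO.

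**Figure D2:**
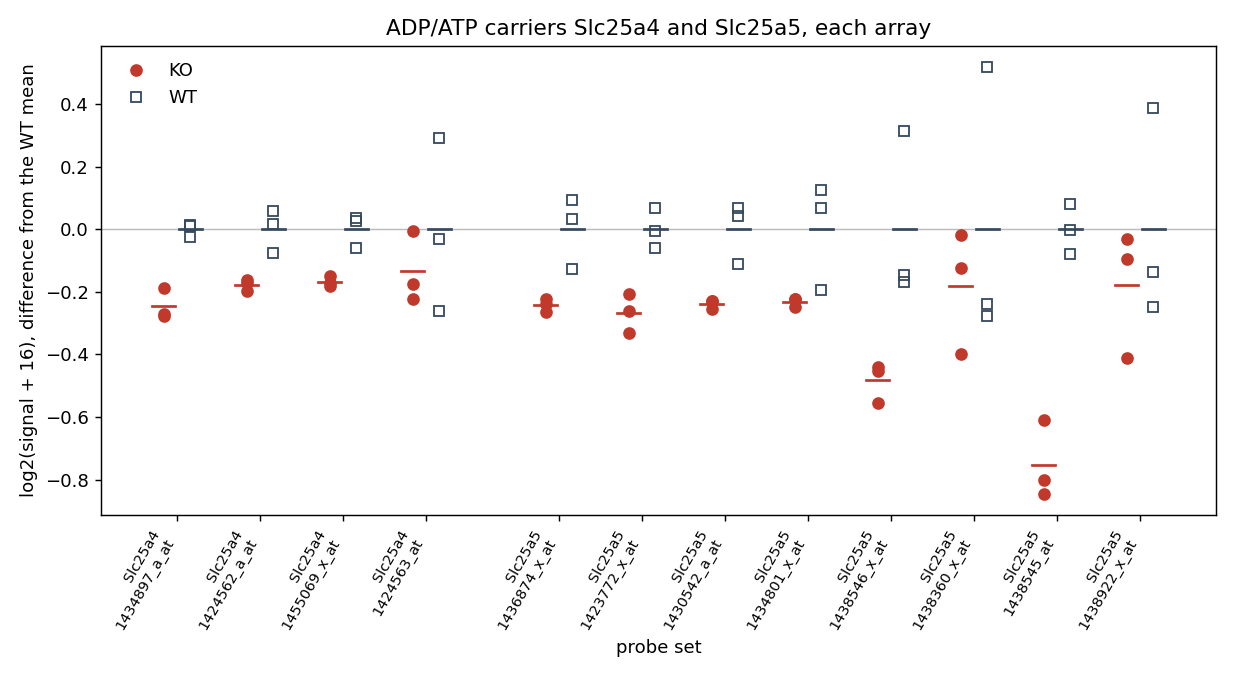
Difference of each array from the WT mean in log2(signal + 16) for the 4 probe sets of Slc25a4 and the 8 of Slc25a5 (filled circles KO, open squares WT, lines group means, n = 3 each). KO means lie below 0 for all 12, from -0.75 for 1438545_at to -0.13 for 1424563_at.

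Slc25a3 encodes the phosphate carrier, which forms the ATP synthasome with ATP synthase and the ADP/ATP carriers. Its leading probe set read 4790, 4609 and 4870 in KO, against 5566, 5241 and 4943 in WT. All KO arrays were below all WT arrays, but KO 3 and WT 3 were close, and the difference of -0.14 did not pass (95% interval -0.29 to 0.00, adjusted p = 0.56). A dim second probe set gave -0.15 with overlapping groups.

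The promoters of these energy-coupling carriers are shown because all 3 genes read lower in every KO array by their leading probe sets. They are RefSeq windows of GRCm38.p6, from 250 bases before to 50 after the gene's start, printed 5′ to 3′ on the gene's strand, with motif matches in capitals. The windows are chr8:46211013-46211312 (minus strand) for Slc25a4, chrX:36795347-36795646 (plus strand) for Slc25a5 and chr10:91123918-91124217 (minus strand) for Slc25a3.
Slc25a4: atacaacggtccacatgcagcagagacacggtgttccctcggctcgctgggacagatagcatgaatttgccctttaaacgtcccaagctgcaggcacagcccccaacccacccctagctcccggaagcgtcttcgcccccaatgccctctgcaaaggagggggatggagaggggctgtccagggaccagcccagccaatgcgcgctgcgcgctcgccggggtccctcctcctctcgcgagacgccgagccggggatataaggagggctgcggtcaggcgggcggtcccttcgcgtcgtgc
Slc25a5: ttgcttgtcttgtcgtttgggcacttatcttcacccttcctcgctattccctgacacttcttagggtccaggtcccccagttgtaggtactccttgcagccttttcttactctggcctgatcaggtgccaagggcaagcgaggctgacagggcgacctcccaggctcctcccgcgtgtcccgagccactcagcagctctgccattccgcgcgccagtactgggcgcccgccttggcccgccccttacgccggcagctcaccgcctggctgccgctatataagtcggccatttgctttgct
Slc25a3: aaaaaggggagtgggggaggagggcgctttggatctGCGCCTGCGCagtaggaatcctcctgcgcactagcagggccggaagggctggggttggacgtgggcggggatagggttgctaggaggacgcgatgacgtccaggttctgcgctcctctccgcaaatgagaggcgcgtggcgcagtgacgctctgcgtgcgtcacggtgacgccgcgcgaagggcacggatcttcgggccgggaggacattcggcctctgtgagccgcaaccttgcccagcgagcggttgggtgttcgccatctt

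Motifs were searched on both strands. They were the half-site of ERRalpha (AAGGTCA), the NRF1 site (by name, since its centre holds a free base) and the ETS site bound by GABPA (CCGGAAGT). These factors are known as partners or targets of PGC-1alpha. The Slc25a3 window held 1 NRF1 match, at bases 37 to 46 from its 5′ end, which overlapped no other match. The Slc25a4 and Slc25a5 windows held none of these letters. Over the 34 carriers with windows in the table, 43 windows in all, the ERRalpha letters occurred in 1 gene (Slc25a34), the NRF1 letters in 2 (Slc25a3 and Slc25a31) and the GABPA letters in 1 (Slc25a20). Of the 43 carrier windows 2.33% held the ERRalpha letters, 4.65% the NRF1 letters and 2.33% the GABPA letters. Of all 32851 promoter windows the shares were 4.72%, 4.60% and 3.89%, in the same order. A match is only a match of letters in this window.

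The remaining carriers of adenine nucleotides did not separate the genotypes where tested. Slc25a23, Slc25a24 and Slc25a25 encode calcium-regulated carriers that exchange ATP-magnesium for phosphate. Their differences were -0.09, -0.14 and 0.05, each with a 95% interval that spans 0. Slc25a17, a peroxisomal carrier of coenzyme A and related cofactors, gave -0.14, and Slc25a42, which carries coenzyme A into mitochondria, gave -0.09. In this group of 8 tested carriers, 7 were lower, with a median of -0.14. Set against the mean of the WT arrays, the group's median was -0.18, -0.24 and -0.06 in the KO arrays, against 0.02, 0.05 and -0.06 in the WT arrays, so KO 3 lay beside WT 3.

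Slc25a31, the ADP/ATP carrier of testis, and Slc25a41 were too dim to be tested. Slc25a31 read 23.6, 17.3 and 21.3 in KO, against 2.5, 3 and 1.2 in WT. Its groups did not overlap, but all 6 values lay below the filter signal of 26.8, and with no filter its adjusted p was 0.11. Slc25a41 read at most 1.7 on any array.

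Carriers of carboxylates, aspartate and glutamate split by direction, with 4 of 7 lower and a median of -0.07. Slc25a1, the citrate carrier that exports acetyl units for lipid synthesis, read 199.6, 188 and 190.2 in KO, against 210.1, 313.6 and 221.8 in WT. The groups did not overlap and WT 2 stood far above the rest. The difference was -0.32 (95% interval -0.62 to -0.02, adjusted p = 0.49), and -0.15 without WT 2. Slc25a11, the oxoglutarate-malate carrier of the malate-aspartate shuttle, read 552.6, 522.5 and 533.2 in KO, against 574.6, 645.1 and 653 in WT. All KO arrays were below the WT arrays, and the difference was -0.21 (95% interval -0.39 to -0.03, adjusted p = 0.44).

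Slc25a12 encodes aralar, the aspartate-glutamate carrier of neurons and the second carrier of that shuttle. It read 878.3, 949.3 and 998.9 in KO, against 1028, 1043 and 1011 in WT. KO 3 lay just below the lowest WT array, and the difference was -0.12 (95% interval -0.29 to 0.04). A dimmer Slc25a12 probe set, 1436440_at, read 82.5, 74.8 and 88.9 in KO, against 136.1, 95.9 and 113.5 in WT. It did not overlap either and gave -0.41 (adjusted p = 0.41), whereas 1444489_at gave -0.06 with overlapping groups.

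A further 3 carriers of this group read higher in KO on average, each with overlapping groups. Slc25a13, the related carrier citrin of liver, read 61.2, 71.9 and 61.8 in KO, against 60, 62.6 and 31.9 in WT, where WT 3 was low. Its difference was 0.29 (95% interval -0.16 to 0.75), and 0.06 without WT 3. Slc25a18, the glutamate carrier of astrocytes, read 222.3, 217.4 and 193.6 in KO, against 180, 164 and 211.6 in WT. Its difference was 0.18 (95% interval -0.08 to 0.44). Slc25a22, the glutamate carrier more widespread in tissues, read 347.7, 361.6 and 357.9 in KO, against 367.5, 325.2 and 323.1 in WT. It gave 0.07, with WT 1 above all KO arrays. Slc25a10, the dicarboxylate carrier, gave -0.07 with overlapping groups.

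The uncoupling proteins of brain and their relatives comprised 3 genes, of which 1 was lower and 2 were higher in KO. Slc25a14, also named UCP5 or BMCP1 and abundant in brain, read 853.6, 927.7 and 826.7 in KO, against 719.7, 810.6 and 755.2 in WT. It was the only carrier tested whose KO arrays all lay above the WT arrays by the leading probe set. The difference was 0.19 (95% interval 0.01 to 0.36, adjusted p = 0.49), and it stayed between 0.14 and 0.23 over all alternatives without passing. Slc25a27, or UCP4, read 212.8, 221.3 and 181.2 in KO, against 221.4, 210 and 230.7 in WT. KO 3 was low and the groups overlapped, with a difference of -0.10 (95% interval -0.35 to 0.14). A dimmer Slc25a27 probe set, 1454230_a_at, read 48, 57.5 and 48.3 in KO, against 78.2, 60.3 and 73.9 in WT. It did not overlap (difference -0.37, adjusted p = 0.55), while 2 others gave 0.08 and 0.17.

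Slc25a30, also named KMCP1 and close to Slc25a14, gave 0.20 by its leading probe set (95% interval -0.16 to 0.56) and -0.23 and -0.06 by others. The classical uncoupling proteins of brown fat and muscle were near or below the filter. Ucp1 read between 1.4 and 6.2 in KO, against 6 to 21.8 in WT. Ucp3 read between 17.8 and 27.3 in KO, against 24.3 to 45.7 in WT, with a difference of -0.42 (95% interval -0.93 to 0.09).

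**Figure D3:**
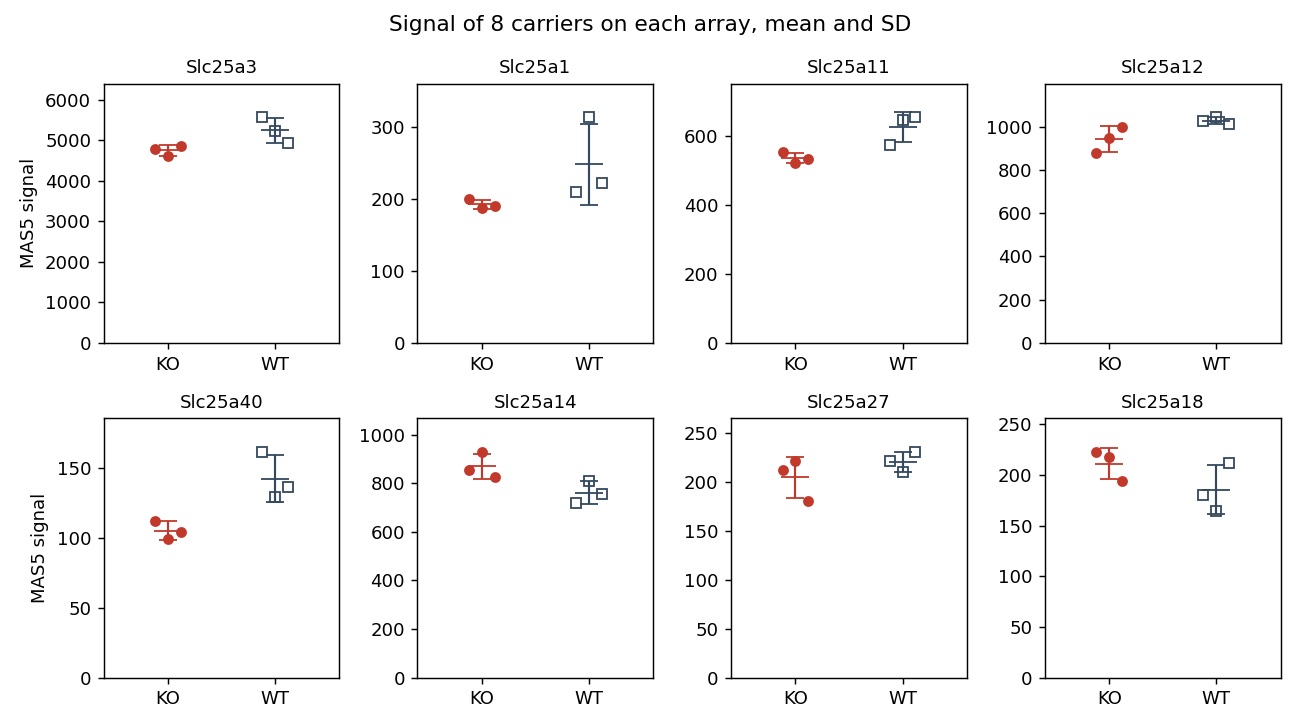
MAS5 signal (linear axis from 0) of 8 carriers by their leading probe sets on each array, KO left of WT, with mean and SD, n = 3 each. KO arrays lie below all WT arrays for Slc25a3, Slc25a1, Slc25a11, Slc25a12 and Slc25a40 and above them for Slc25a14, and the groups overlap for Slc25a27 and Slc25a18.

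Carriers of acylcarnitine, amino acids and glutathione had 6 of 9 lower, with a median of -0.02. Slc25a40, a glutathione carrier, had the most negative difference in the family among leading probe sets. It read 112.2, 98.9 and 103.8 in KO, against 161.2, 129.4 and 136 in WT. The groups did not overlap, and the difference was -0.38 (95% interval -0.67 to -0.09, adjusted p = 0.36, with 0.24 to 0.66 over all alternatives). Its paralogue Slc25a39, the other glutathione carrier, gave -0.10 by the leading probe set and 0.01 by another, both with overlapping groups. Of its dimmer probe sets, 1447783_x_at read 159.2, 139.1 and 119.1 in KO, against 175.5, 183 and 167.3 in WT. Probe set 1453111_a_at read 117.6, 107.8 and 118.9 in KO, against 152.6, 141 and 136.9 in WT. Neither overlapped, and they gave -0.31 and -0.29 (adjusted p = 0.47 and 0.49).

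Slc25a20, the carnitine-acylcarnitine carrier that admits long-chain fatty acids for oxidation, gave 0.13 and -0.01 by its probe sets. Its leading probe set averaged 185 ± 58.5 in KO and 163 ± 20.5 in WT (SD, n = 3), and its 95% interval ran from -0.28 to 0.54. Slc25a15, an ornithine carrier, gave 0.07, Slc25a29, a carrier of basic amino acids, -0.02, and Slc25a44, a carrier of branched-chain amino acids, -0.10. Slc25a38, which supplies glycine for haem synthesis, gave -0.01 with a wide 95% interval of -0.56 to 0.53. Slc25a45 and Slc25a47 gave 0.08 and -0.13, with intervals from -0.50 to 0.65 and from -0.73 to 0.46. Slc25a2 and Slc25a48 were below the filter, with means of 19.1 ± 4.97 in KO and 27.7 ± 12.5 in WT for Slc25a2.

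For the carriers of other nucleotides and cofactors the differences ran from -0.12 to 0.05 over 6 genes, with none called and all groups overlapping. Slc25a33 and Slc25a36, which carry pyrimidine nucleotides, gave 0.01 and -0.03, with 95% intervals of -0.21 to 0.23 and -0.23 to 0.16. Slc25a51, the carrier that brings NAD into mitochondria, gave 0.05 and averaged 731 ± 20.2 in KO and 710 ± 103 in WT (SD, n = 3). Slc25a26 for S-adenosylmethionine, Slc25a32 for folate and Slc25a16 gave 0.02, -0.03 and -0.12. The iron importers mitoferrin-1 (Slc25a37) and mitoferrin-2 (Slc25a28) gave -0.07 and 0.02. Among the remaining carriers, Slc25a46, an outer-membrane protein linked to mitochondrial shape, gave 0.08 by its leading probe set, with overlapping groups, and -0.09 by another, without overlap. Slc25a35 read 45.8, 28.9 and 17 in KO, against 38.5, 38.3 and 44 in WT, and KO 3 was low. Its difference was -0.32 (95% interval -0.84 to 0.21), and -0.09 without KO 3 or -0.55 without KO 1. Slc25a34 and Slc25a53 gave -0.16 and 0.01, and Slc25a54 was below the filter.

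Other genes of mitochondrial transport gave 1 called gene, higher in KO. Of 34 such symbols 28 were on the array and 27 were tested, 19 lower and 8 higher, with a median of -0.06. Among all genes 0.446% were called and 51.8% were lower, with a median of -0.01. Sfxn1, the sideroflexin that carries serine into mitochondria for one-carbon metabolism, read 1049, 988.9 and 1070 in KO, against 733.9, 746.3 and 553.8 in WT. Every KO array lay above every WT array, and the difference was 0.61 (SE 0.11, adjusted p = 0.028). The second Sfxn1 probe set was called as well, with 678.7, 801.9 and 750.3 in KO, against 522.5, 523.7 and 487 in WT, and a difference of 0.52 (adjusted p = 0.021). The leading call was lost without any 1 KO array (adjusted p of 0.11 without KO 1, 0.086 without KO 2 and 0.11 without KO 3), with no filter (0.11) and without the intensity trend (0.29), within 0.021 to 0.29 over all alternatives. The second call was lost with no filter (0.057), without the trend (0.25) and without KO 2 (0.12), KO 3 (0.074), WT 2 (0.058) or WT 3 (0.067), within 0.018 to 0.25.

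Mpc1, a subunit of the mitochondrial pyruvate carrier, read 1352, 1186 and 1261 in KO, against 1623, 1564 and 1519 in WT. The groups were separate, with a difference of -0.31 that did not pass (95% interval -0.47 to -0.15, adjusted p = 0.13). Mtch2, an outer-membrane relative of the SLC25 family that inserts membrane proteins, read 564.1, 561.9 and 534.4 in KO, against 717.7, 678.2 and 628.8 in WT. It was lower in all KO arrays, with a difference of -0.28 (adjusted p = 0.25). Of its other tested probe sets 1 gave -0.33 without overlap, and the rest gave -0.10 and -0.08 with overlapping groups. Of the outer-membrane channels, Vdac3 gave -0.15 without overlap (adjusted p = 0.51), whereas Vdac1 and Vdac2 gave -0.06 and -0.01 with overlapping groups by their leading probe sets. Another Vdac1 probe set gave -0.06 without overlap.

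The products of the ATP synthase genes work with the ADP/ATP and phosphate carriers. All 16 of these genes on the array were lower, from -0.31 to -0.08 with a median of -0.21, and none was called. The leading differences of Slc25a4 (-0.25) and Slc25a5 (-0.24) lay within that range, and that of Slc25a3 (-0.14) too. Of these 16, 14 had groups without overlap, against 8.48% of all genes lower without overlap. Among bright probe sets that share was 11.2% at a mean signal of at least 1000 and 12.8% at 2000. The 5th to 95th percentile of all genes ran from -0.35 to 0.29.

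**Figure D4:**
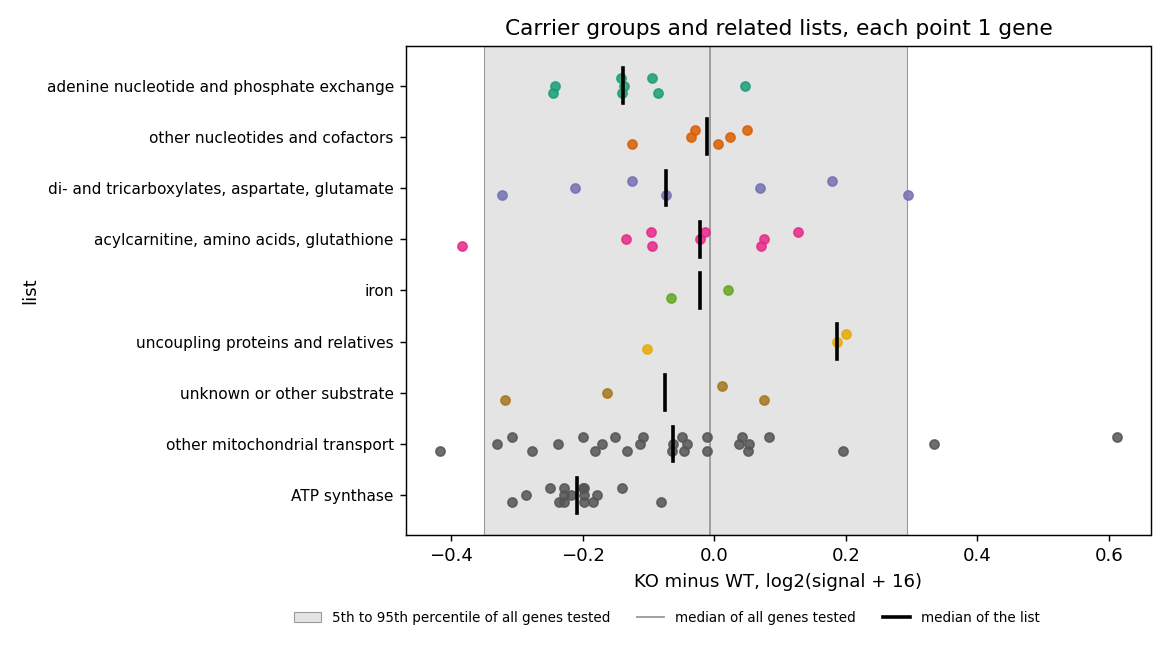
KO minus WT difference in log2(signal + 16) of each tested gene (points) in the 7 carrier groups, the other transport genes and ATP synthase, with each list's median (black bar). The grey band is the 5th to 95th percentile of all 12323 genes tested and the grey line their median. The 16 ATP synthase genes and 7 of 8 adenine nucleotide and phosphate carriers lie left of that line but inside the band.

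By position the carriers are scattered over 19 chromosomes, with at most 4 on any one. Of these genes, 4 (9.09%) have a called gene with at most 10 protein-coding genes between, against 7.82% of all protein-coding genes named on the array. They are Slc25a13 near Pdk4, Slc25a33 near Slc2a5, Slc25a34 near Efhd2 and Slc25a31 near Cetn4. Slc25a13, Slc25a33 and Slc25a34 were not called, and Slc25a31 was not tested.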

How the data were processed

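RNA from striatum was hybridised to 1 array per mouse, 3 KO and 3 WT, grouped by the sample titles. The authors deposited intensity values (linear, never logged), made with MAS5 per the submitters' processing notes and already scaled to a trimmed mean of 150.001 on every array. The software version was not given in the sources used here. With 3 arrays per group, their number limits the precision.

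Of 45101 probe sets, 64 controls were left out, 34945 had exactly 1 symbol (34741 matched the GRCm38.p6 table by gene ID, which gave current symbols), 932 had several and 9160 had none listed. Signals were taken as log2(signal + 16), and a probe set was kept if its mean lay above the 40th percentile of all (signal 26.8). KO was compared with WT in limma 3.58.1 (R 4.3.3; lmFit, eBayes with trend, prior degrees of freedom 8.34) with Benjamini-Hochberg adjustment over 27022 probe sets. An exact permutation test of 3 arrays against 3 cannot go below 0.1, so single carriers have no p from it. The fit was also run on simulated data, with planted differences larger than that of any carrier tested. Its behaviour at differences as small as those of the carriers was therefore not examined. Replicates are separate mice.

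The members, the lists and the rule for named genes were chosen with earlier results of these data known. Arrays were printed one by one for all probe sets of Slc25a4 and Slc25a5, 7 preset carriers, every carrier with an unadjusted p under 0.05 or without overlap, and the 5 with the largest difference. Some dimmer probe sets, Slc25a31 and the second Sfxn1 probe set were chosen after their values were seen. Alternatives were quantile normalization, median centring, an offset of 1 or 64, no filter or the 60th percentile, no trend, robust estimation, the replicate block, averaging the probe sets of each gene, and each array left out.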

Additional observations from a re-analysis of the deposited data

How the results depend on the processing

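The Slc25a5 call on probe set 1438545_at kept its direction in the 15 alternatives run on it and passed in 14, being lost without the intensity trend, where 0 carriers were called. It has no value of its own once each gene's probe sets are averaged. In that fit 0 carriers were called in limma (Slc25a5 -0.32, adjusted p = 0.094). With probe sets kept separate, leaving out each array in turn called 1 carrier each time. Over the array 127 probe sets were called, but 52 with no filter, 25 with no intensity trend, and 65 to 102 when each array was left out (65 without KO 1, 73 without KO 2, 70 without WT 2). The median over carriers was -0.021 with arrays centred on the median, and ran from -0.091 (without KO 3) to -0.028 (without KO 1) with an array left out. Centring moved the median of all probe sets tested to 0.039.

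Several group medians moved or turned. Other nucleotides and cofactors gave 0.032 after centring. Carboxylates, aspartate and glutamate gave 0.064 with probe sets averaged, and -0.17 (without KO 3) to 0.021 (without KO 2) with an array left out. Acylcarnitine, amino acids and glutathione ran from -0.10 (without WT 3) to 0.059 (without WT 2), and iron from -0.086 (without WT 2) to 0.075 (without WT 1), around -0.022. Uncoupling proteins had a median of 0.19, which was 0.13 to 0.18 with an array left out but -0.032 with probe sets averaged. Carriers of unknown substrate gave -0.16 with no filter and 0.044 with the filter at the 60th percentile. Adenine nucleotide and phosphate carriers stayed between -0.17 and -0.095. With an array left out, 1424563_at of Slc25a4 ran from -0.27 to 0.011 (without WT 1), 1438360_x_at of Slc25a5 from -0.32 to 0.079 (without WT 3) and 1438922_x_at from -0.30 to 0.015 (without WT 3), each changing direction. The cause of these changes was not tested.

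The labels do not say what a shared replicate number means. Deviations of same-numbered arrays correlated at -0.0091, -0.035 and 0.017, against -0.041 to 0.049 for arrays of different numbers. Such values cannot show whether the mice were paired, because a weak shared effect would leave them near 0 too. With the replicate block 100 probe sets were called, and Slc25a5 kept its call (adjusted p = 0.014).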

Other observations

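Probe sets of the same carrier often disagreed in direction. Of 17 carriers with 2 or more probe sets tested, 11 had differences on both sides of 0. Slc25a51 gave 0.05, -0.13 and 0.25, Slc25a29 ran from -0.08 to 0.25 over 5 probe sets, and Slc25a30 from -0.23 to 0.20 over 3. The 6 with one sign throughout, all of it negative, were Slc25a3, Slc25a4, Slc25a5, Slc25a12, Slc25a36 and Slc25a44.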
